A study of Homo sapiens with 8 samples.

Results

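The genes described here are 37 genes of mitosis and cytokinesis, the steps in which a cell separates its copied chromosomes and then divides. They were taken by symbol from a table of 23354 genes, all 37 were found in it, and all 37 passed the filter on low counts that left 15564 genes for testing. By role, 7 act in the entry into mitosis, 5 in the spindle checkpoint, 3 with the anaphase-promoting complex (APC/C) or as its substrate, 6 at the kinetochore and centromere, 2 in the chromosomal passenger complex, 6 as motors or microtubule-binding proteins of the spindle, 6 in cytokinesis, and 2 in chromosome structure.

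RNA sequencing was done on mesenchymal stromal cells of passages 8 to 12. They had been made from H9, an established line of human embryonic stem cells, in a study of freezing such cells without relying on dimethyl sulfoxide (DMSO). Of the 8 libraries, 3 came from cells frozen at 3 °C per minute in osmolyte solutions, labelled SMC after 2 h in the solution, and SGC and SGI after 1 h. Another 2 came from cells frozen at 1 °C per minute in DMSO after 1 h and 0 h, and 3 came from fresh cells after 1 h with DMSO, after 1 h in medium and at 0 h. The labels do not expand SMC, SGC and SGI. All cells were grown on gelatin in serum-containing medium, and the frozen ones were thawed in a warm bath before RNA was isolated. There was 1 library per condition. Separate cultures are not stated. The p-values here set a difference between groups against the spread of libraries within groups. Libraries of a group differed in solution or holding time, and beyond that their spread may be technical. The effects of solution and cooling rate cannot be told apart because they changed together. Holding time differed too, at 2 h, 1 h and 1 h in the osmolyte-frozen libraries and 1 h and 0 h in the DMSO-frozen ones. Nor can those of freezing and of the osmolyte solutions, since unfrozen cells in them were not sequenced.

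In dividing cells, cyclin-dependent kinase 1 with its cyclins starts mitosis, and the polo-like and Aurora kinases then drive the building of the spindle. Kinetochores tie each chromosome to spindle microtubules, and the spindle checkpoint holds back the APC/C until every chromosome is attached. Most of these genes are transcribed in the late part of the cell cycle, under the MuvB complex with B-MYB and FOXM1, and are held down in resting cells when the same complex joins the DREAM repressor. Their RNA is therefore widely used as a mark of proliferating cells. In RNA from a whole culture, fewer dividing cells and less of these RNAs in each cell cannot be told apart.

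The promoters of such genes often carry a cell cycle genes homology region, most often spelled TTTGAA, which MuvB binds, and CCAAT boxes, which the factor NF-Y binds. The 7 promoters shown here were chosen from several of the roles and to hold both kinds of letters. The 150 bases before the annotated start of each gene are given. None is of a spindle checkpoint, APC/C or chromosomal passenger gene. The sequences are from RefSeq on the build GRCh38.p14 and run 5′ to 3′ on the gene's own strand, and capitals mark TTTGAA and CCAAT on either strand (TTCAAA and ATTGG on the other). They begin with CCNB2 (chr15:59104996-59105145, plus strand) and PLK1 (chr16:23678739-23678888, plus strand), which act at the entry into mitosis, followed by the spindle genes HMMR (chr5:163460482-163460631, plus strand) and KIF11 (chr10:92592980-92593129, plus strand). CENPA (chr2:26785906-26786055, plus strand) marks the centromere, KIF23 (chr15:69414199-69414348, plus strand) acts in cytokinesis, and MKI67 (chr10:128126424-128126573, minus strand) coats chromosomes.
CCNB2: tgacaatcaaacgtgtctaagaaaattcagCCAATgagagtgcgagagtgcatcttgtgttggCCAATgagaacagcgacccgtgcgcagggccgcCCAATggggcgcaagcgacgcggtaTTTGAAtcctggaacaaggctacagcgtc
PLK1: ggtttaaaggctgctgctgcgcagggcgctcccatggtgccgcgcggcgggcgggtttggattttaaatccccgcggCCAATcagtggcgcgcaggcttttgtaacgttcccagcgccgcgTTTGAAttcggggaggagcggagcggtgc
HMMR: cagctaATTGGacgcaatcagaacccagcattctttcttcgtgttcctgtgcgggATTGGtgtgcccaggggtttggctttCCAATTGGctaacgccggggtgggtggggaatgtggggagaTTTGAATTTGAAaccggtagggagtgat
KIF11: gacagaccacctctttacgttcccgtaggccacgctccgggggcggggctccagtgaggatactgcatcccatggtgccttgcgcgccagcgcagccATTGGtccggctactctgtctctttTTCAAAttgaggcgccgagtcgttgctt
CENPA: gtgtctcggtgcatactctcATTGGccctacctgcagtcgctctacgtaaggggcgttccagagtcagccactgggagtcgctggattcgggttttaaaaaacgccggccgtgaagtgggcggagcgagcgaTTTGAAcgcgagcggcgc
KIF23: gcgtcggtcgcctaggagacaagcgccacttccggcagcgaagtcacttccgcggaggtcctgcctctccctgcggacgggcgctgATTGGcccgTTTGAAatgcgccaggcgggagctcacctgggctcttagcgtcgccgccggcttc
MKI67: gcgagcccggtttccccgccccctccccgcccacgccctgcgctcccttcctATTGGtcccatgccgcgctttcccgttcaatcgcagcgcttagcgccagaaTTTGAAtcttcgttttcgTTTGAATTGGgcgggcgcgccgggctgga

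A window from 250 bases before to 50 bases after the start was at hand for 30 of the 37 genes and was not used here for UBE2C, AURKA, RACGAP1, TTK, BIRC5, BUB3 and TPX2. The letters TTTGAA or the related TTCGAA, on either strand, stood in 23 of the 30 windows (76.7%), against 4539 of 27305 windows of all genes (16.6%). CCAAT on either strand stood in 24 windows (80.0%), against 35.7% of all windows, and at least 2 times in 15 of the 30, against 11.3% of all windows. Both kinds of letters stood in 19 windows (63.3%), against 6.58%. The 2 kinds can share bases, as at TTTGAATTGG in MKI67, and CCAAT on one strand can overlap CCAAT on the other, as at CCAATTGG in HMMR. Counted from the start on the gene's strand, the leftmost base of TTTGAA lay at -29 in both CCNB2 and PLK1, and CCAAT lay at -73 in PLK1. These letters describe the windows and were not read as bound sites.

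**Figure D1:**
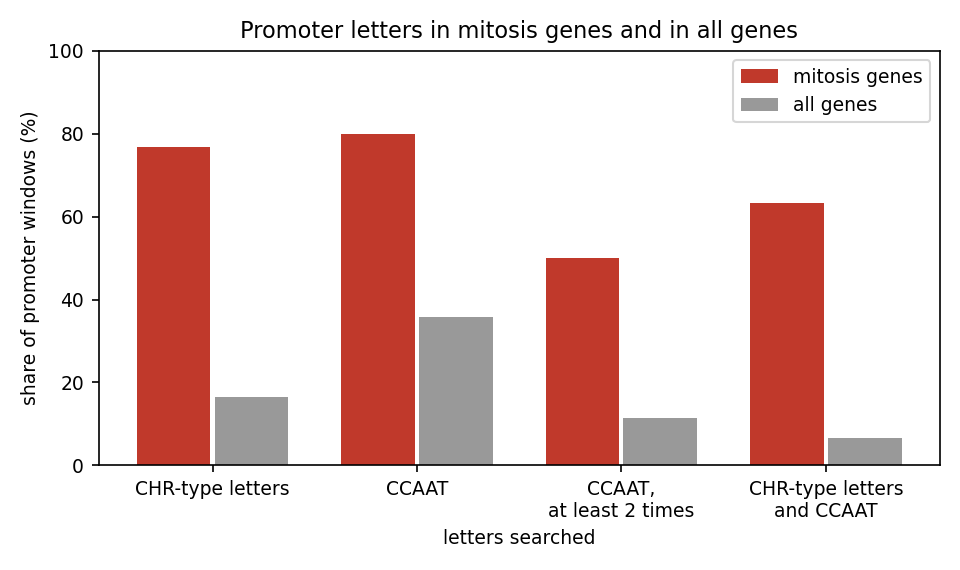
The bars give the share, in %, of promoter windows that hold TTTGAA or TTCGAA (CHR-type letters), CCAAT at least 1 time or at least 2 times, and both kinds, for the 30 mitosis genes with a window (red) and for all 27305 genes with one (grey). The shares of the mitosis genes were 76.7% for the first, 80.0% for CCAAT and 63.3% for both, each above that of all genes.

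Counts summed to between 41198716 and 51166666 per library, and the 37 genes had between 310 and 10834 counts each in a library. The exact Poisson 95% interval of a single level, which covers counting error only and takes each counted unit as entered as 2, was between 2.67% and 16.1% of the level to either side. The cells expressed all 10 mesenchymal markers looked for, with summed levels of 57544 to 78008 CPM (counts per 1e+06 counts) in osmolyte-frozen, 58726 and 69295 CPM in DMSO-frozen and 56017 to 61350 CPM in fresh libraries. That sum was mostly COL1A1 and COL1A2, and by edgeR 4 of the 10 were lower and 2 higher against DMSO-frozen cells, and 5 lower and 3 higher against fresh cells. CD44, a surface marker of these cells, averaged 268 CPM in osmolyte-frozen, 479 CPM in DMSO-frozen and 555 CPM in fresh libraries. Of 5 blood markers 4 were under 1 CPM in every library, as were SOX2, LIN28B and PRDM14 among 8 markers of pluripotent cells, whose summed level was 22.1 to 25.5, 14.8 and 15.5, and 17.1 to 19.5 CPM in the same order of groups, with 3 of the 5 tested higher in osmolyte-frozen cells in both comparisons by edgeR. The 4 epithelial markers, which include KRT8 and KRT18, summed to 1258 to 1377, 1210.0 to 1233 and 1342 to 1532 CPM, with 1 lower and 2 higher in osmolyte-frozen than in fresh cells, and of 3 neural markers tested 2 were lower than in fresh cells. Of the rest, 2 of 4 endothelial markers, VWF and KDR, were under 1 CPM in every library. RNA composition moved with the groups: the nuclear RNAs MALAT1 and NEAT1 took 0.846% to 0.948% of counts in osmolyte-frozen, 0.393% and 0.452% in DMSO-frozen and 0.472% to 0.567% in fresh libraries. Counts in the table were 64.0% to 66.9% of the total that the RPKM values imply in osmolyte-frozen, 72.1% and 73.0% in DMSO-frozen and 66.2% to 70.4% in fresh libraries, and the 2 frozen groups did not overlap. The part of these differences in the results below was not tested.

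Set per kilobase of the gene length in the table and averaged over the 8 libraries, the most abundant of the 37 genes were BUB3 at 41.2 CPM per kilobase, a checkpoint protein that also serves outside mitosis, and CDC20 at 39.6, the activator of the APC/C. TPX2, which activates Aurora A on the spindle, followed at 38.1 and PTTG1, the securin that guards sister chromatid cohesion, at 35.1 CPM per kilobase. The lowest were KIF4A, a chromosome-bound kinesin, at 3.84 and CENPE, a kinetochore motor, at 4.76 CPM per kilobase. From the lowest to the highest library the level spanned 2.02-fold for BIRC5, the widest of the 37 genes, and 1.17-fold for KIF23, the narrowest.

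The 37 genes together were lowest in the cells frozen in osmolyte solutions. Their levels summed to 1601 CPM in SMC, 1505 CPM in SGC and 1721 CPM in SGI, against 1891 CPM at 1 h and 2104 CPM at 0 h in the DMSO-frozen libraries. Fresh cells had 2266 CPM after 1 h with DMSO, 2061 CPM after 1 h in medium and 1943 CPM at 0 h. All 3 osmolyte-frozen libraries lay below all 5 others, while DMSO-frozen and fresh libraries overlapped. The means were 1609 ± 108 CPM (SD, n = 3) in osmolyte-frozen, 1998 ± 151 CPM (SD, n = 2) in DMSO-frozen and 2090 ± 164 CPM (SD, n = 3) in fresh libraries, so that the osmolyte-frozen mean was 19.5% below the DMSO-frozen and 23.01% below the fresh one. With library totals alone as the scaling, SGI came to 1833 CPM and frozen 1 h DMSO to 1829 CPM, so these 2 libraries no longer separated.

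**Figure D2:**
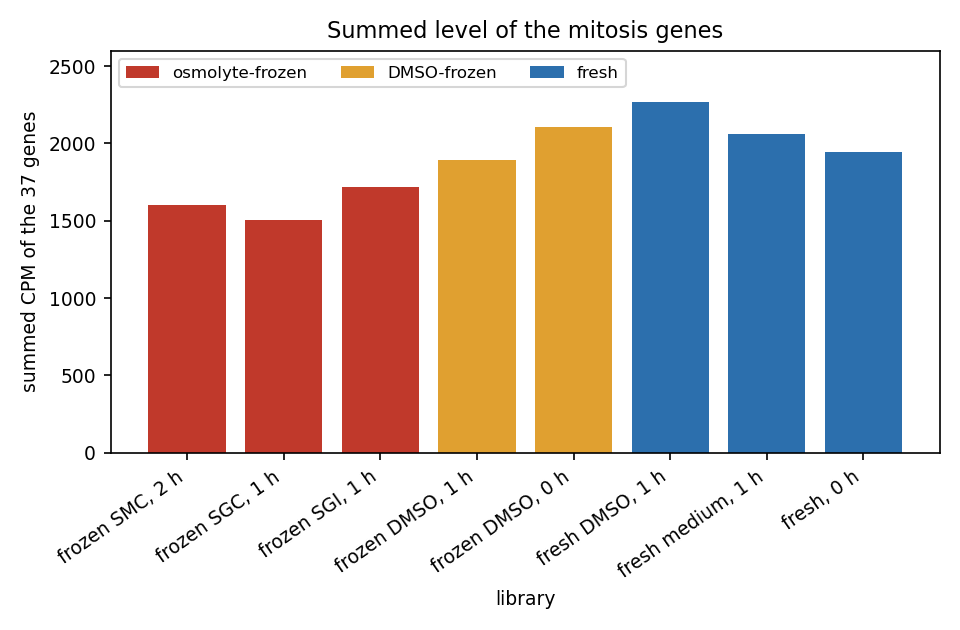
Each bar is the summed level of the 37 genes in 1 library, in CPM, coloured by group, with osmolyte-frozen libraries on the left and fresh ones on the right. The 3 osmolyte-frozen libraries sit at 1505 to 1721 CPM and the other 5 at 1891 to 2266 CPM.

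How the 2 kinds of solution differ after freezing and thawing is addressed by setting the osmolyte-frozen against the DMSO-frozen libraries. In osmolyte-frozen cells 16 of the 37 genes were lower and 0 were higher by edgeR's quasi-likelihood test, with Benjamini-Hochberg (BH) adjustment at 0.05 over all genes, and the called changes were 1.20-fold to 1.44-fold. Over all 15564 genes the same test called 16.5% lower and 13.6% higher. No member was called higher by DESeq2 either, which called 16 lower. An unadjusted edgeR p under 0.05 was found for 22 of the 37, in either direction. The shares of all genes passing by DESeq2 or by unadjusted p are not given here, so these counts have no background. The log2 change was below 0 for 34 of the 37 (45.5% of all genes), with a median of -0.24, against a median of 0.04 over all genes. For 25 genes all osmolyte-frozen libraries lay below both DMSO-frozen ones, as they did for 27.7% of all genes, and for 1 gene, UBE2C, all lay above, as for 29.1% of all genes. The count rested on 1 library: without the DMSO-frozen 0 h library, where the single library left is taken to vary as the other groups do, 4 genes were lower (BUB1, TPX2, ECT2 and RACGAP1), against 8.47% of all genes. Without SGC 10 were lower, against 2001 of 15434 genes tested. The libraries held for 1 h, which include 1 DMSO-frozen library, gave a median log2 change of -0.22 for the 37 genes and 0.0086 over all genes. With the libraries held for 1 h alone, a setting chosen after seeing the data, 5 of the 37 were lower, against 9.38% of all genes, so the share among the 37 was then nearer to that of all genes.

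Against fresh cells, 24 of the 37 genes were lower and 0 higher in osmolyte-frozen cells by the same edgeR test, by 1.20-fold to 1.65-fold, where 21.0% of all genes tested were called lower and 19.1% higher. DESeq2 also called 24 lower and 0 higher, and 28 genes had an unadjusted edgeR p under 0.05. For these counts too the shares of all genes are not given here. The log2 change was below 0 for 35 of the 37 (48.2% of all genes), with a median of -0.33, against 0.02 over all genes. For 26 genes the groups did not overlap, all with osmolyte-frozen cells lower, as for 24.8% of all genes. Leaving out any 1 library gave 21 to 28 genes lower, against 16.8% to 20.4% of all genes. The 2 comparisons share the osmolyte-frozen libraries. Of the 37 genes 15 were lower in both, CENPE was lower only against DMSO-frozen cells as called, 9 were called only against fresh cells and 12 in neither. Whether the 2 changes of a gene differed was tested as the difference between DMSO-frozen and fresh cells, given further on.

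DMSO-frozen cells against fresh cells gave 0 of the 37 genes lower and 0 higher by edgeR with BH adjustment, and 0 by DESeq2. Of the 37, 5 had an unadjusted edgeR p under 0.05, and the share of all genes with one is not given here. Over all genes edgeR with BH adjustment called 0.617% lower and 1.87% in either direction. The log2 change was below 0 for 32 of the 37, as for 51.6% of all genes. The lowest adjusted p among the 37, 0.126, was that of BIRC5. The log2 change was between -0.36 and 0.11, with a median of -0.07, against -0.01 over all genes. Leaving out 1 library gave medians of -0.16, without DMSO-frozen 0 h, to 0.0066, without DMSO-frozen 1 h, so the direction of the median rested on 1 library. With the 1 h libraries alone, a setting chosen after seeing the data, the median was -0.22, against 0.0063 over all genes. That setting holds 1 DMSO-frozen library and also gave -0.22 for osmolyte-frozen against DMSO-frozen cells. For 5 genes, CCNA2, AURKB, PLK1, CDC20 and BIRC5, both DMSO-frozen libraries lay below all fresh ones, as for 15.4% of all genes. Only 1 of the 3 fresh libraries had DMSO. Without the fresh 0 h library 1 gene, BIRC5, was called lower.

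**Figure D3:**
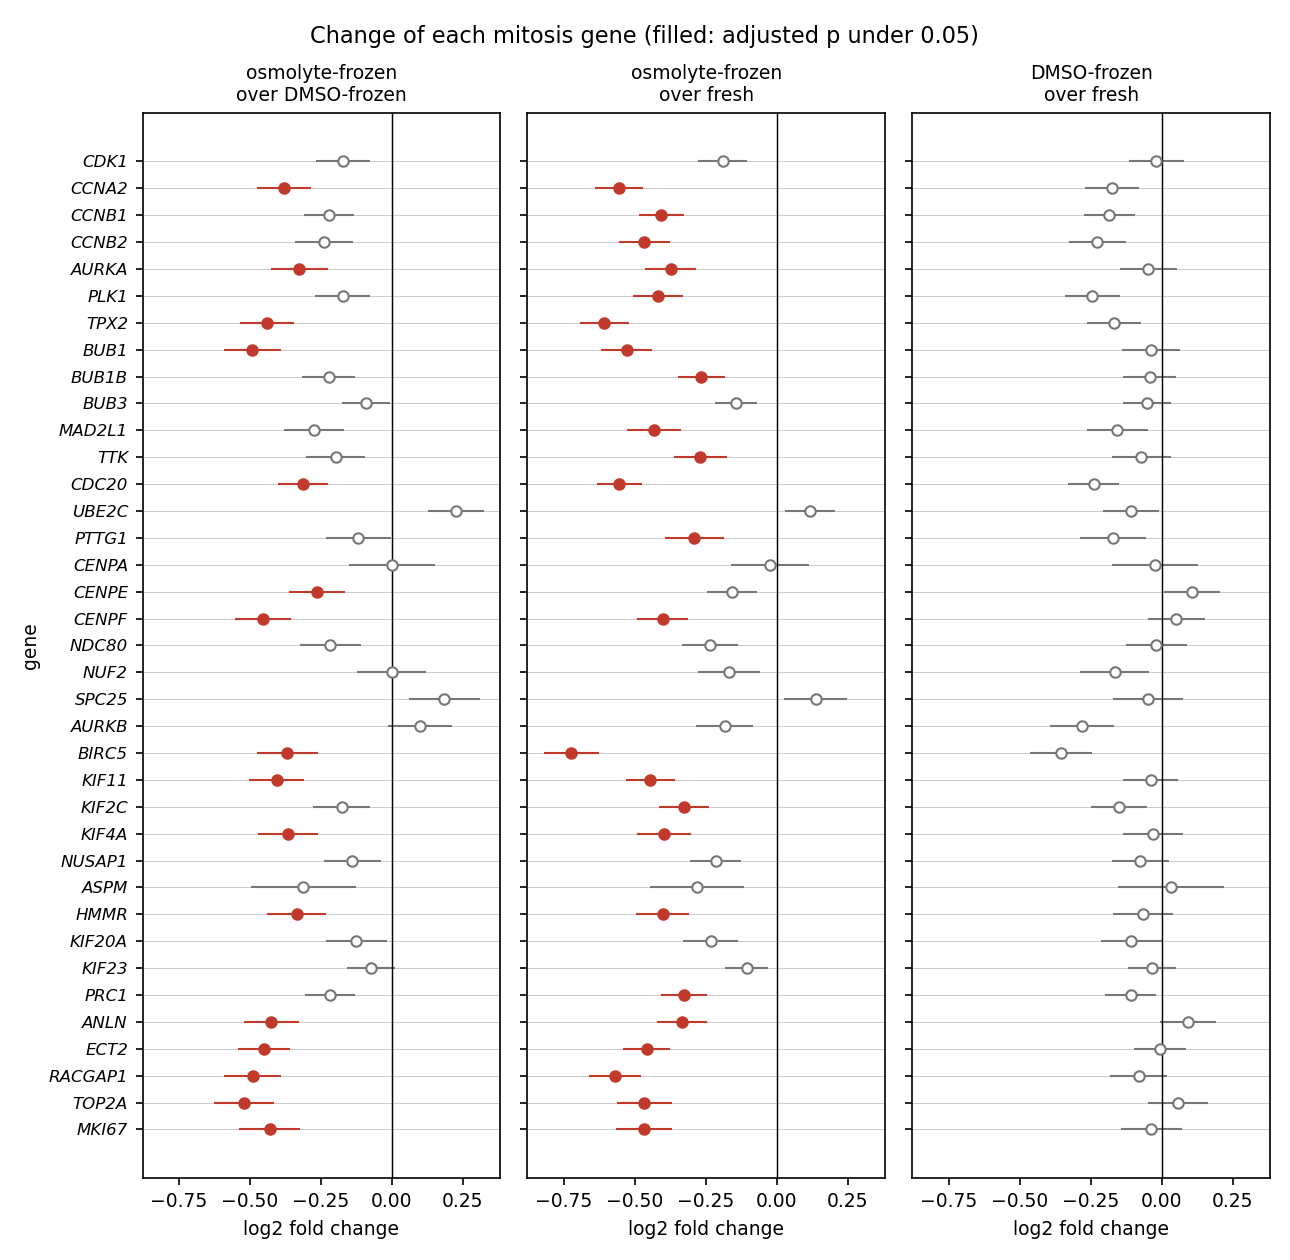
Points give each gene's log2 fold change from the edgeR fit, in rows by role, for osmolyte-frozen over DMSO-frozen, osmolyte-frozen over fresh, and DMSO-frozen over fresh; bars are 1 standard error and filled points have a BH adjusted p under 0.05. Filled points lie left of 0 in the first panel for 16 genes and in the second for 24, and the panel for DMSO-frozen over fresh has none.

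Among the genes of the entry into mitosis, 3 of 7 were lower in osmolyte-frozen than in DMSO-frozen cells (TPX2, CCNA2 and AURKA) and 6 of 7 than in fresh cells (all but CDK1). TPX2 had 103, 101 and 121 CPM in SMC, SGC and SGI, against 141 and 154 CPM in DMSO-frozen libraries at 1 h and 0 h. In fresh cells it had 175 CPM after 1 h with DMSO, 171 CPM after 1 h in medium and 151 CPM at 0 h. Every osmolyte-frozen library was below every other one. TPX2 was 1.36-fold lower than in DMSO-frozen cells (log2 change -0.44, SE 0.09, edgeR adjusted p = 0.00195) and 1.52-fold lower than in fresh cells (log2 change -0.61, SE 0.09, edgeR adjusted p = 1.93e-05). With the 1 h libraries alone its edgeR adjusted p against DMSO-frozen cells was 0.0710.

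CCNA2 encodes cyclin A2, which acts in S phase and early mitosis. Its levels were 30.6, 25.5 and 30.5 CPM in SMC, SGC and SGI, 36.5 and 38.6 CPM in DMSO-frozen libraries at 1 h and 0 h, and 44.3, 43.6 and 39.4 CPM in fresh cells after 1 h with DMSO, after 1 h in medium and at 0 h. The 3 groups did not overlap and stood in that order. CCNA2 was 1.30-fold lower in osmolyte-frozen than in DMSO-frozen cells (edgeR adjusted p = 0.00537) and 1.47-fold lower than in fresh cells (log2 change -0.56, SE 0.09, edgeR adjusted p = 4.90e-05). The gene overlaps EXOSC9 in the table, which had 1016 to 1398 counts, and the strand setting of the counting is not given in the sources used here, so reads of the pair may be split.

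CDK1, the kinase that starts mitosis, had 31.4, 32.5 and 34.2 CPM in SMC, SGC and SGI, 33.3 and 40.3 CPM in DMSO-frozen libraries at 1 h and 0 h, and 40.1, 37.1 and 34.7 CPM in fresh cells after 1 h with DMSO, after 1 h in medium and at 0 h. Osmolyte-frozen and DMSO-frozen libraries overlapped, and neither comparison passed the edgeR test, with log2 changes of -0.17 (SE 0.10, adjusted p = 0.185) against DMSO-frozen and -0.19 (SE 0.09, adjusted p = 0.0860) against fresh cells. Without the filter on low counts the adjusted p against fresh cells was 0.0482 by edgeR. CCNB1, which encodes the main cyclin partner of CDK1, had 57.9, 53.0 and 59.5 CPM in SMC, SGC and SGI, against 63.2 and 69.3 CPM in DMSO-frozen libraries, and 77.6, 80.2 and 68.3 CPM in fresh libraries in the same order. It was 1.33-fold lower in osmolyte-frozen than in fresh cells (edgeR adjusted p = 0.000531), and against DMSO-frozen cells its log2 change of -0.22 did not pass (SE 0.09, edgeR adjusted p = 0.0667), although these libraries did not overlap. That adjusted p was 0.0267 without the filter on low counts and 0.00937 with the trend on gene length, described further on, removed.

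The polo-like kinase PLK1 had 33.1, 28.7 and 32.8 CPM in SMC, SGC and SGI, 36.4 and 34.7 CPM in DMSO-frozen libraries at 1 h and 0 h, and 44.6, 44.6 and 37.3 CPM in fresh cells after 1 h with DMSO, after 1 h in medium and at 0 h. The groups did not overlap. PLK1 was 1.34-fold lower in osmolyte-frozen than in fresh cells (edgeR adjusted p = 0.000844), with a log2 change of -0.17 against DMSO-frozen cells (SE 0.10, edgeR adjusted p = 0.183) and of -0.25 in DMSO-frozen against fresh cells (SE 0.10, edgeR adjusted p = 0.267). CCNB2, a second B-type cyclin, was 1.38-fold lower than in fresh cells, and AURKA, the Aurora kinase of the centrosome, was 1.254-fold lower than in DMSO-frozen and 1.30-fold lower than in fresh cells.

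Of the 5 checkpoint genes, BUB1 was lower in both comparisons, and BUB1B, MAD2L1 and TTK were lower against fresh cells only as called. BUB1 encodes a kinase that marks unattached kinetochores. It had 25.9, 25.7 and 30.4 CPM in SMC, SGC and SGI, 37.8 and 39.1 CPM in DMSO-frozen libraries at 1 h and 0 h, and 44.2, 38.5 and 35.7 CPM in fresh cells after 1 h with DMSO, after 1 h in medium and at 0 h. The osmolyte-frozen libraries lay below the rest, and the DMSO-frozen ones lay within the range of the fresh ones. BUB1 was 1.41-fold lower than in DMSO-frozen cells (log2 change -0.49, SE 0.10, edgeR adjusted p = 0.00135) and 1.44-fold lower than in fresh cells (log2 change -0.53, SE 0.09, edgeR adjusted p = 0.000155). MAD2L1, whose protein binds and restrains CDC20, was 1.35-fold lower than in fresh cells, TTK, the kinase also known as MPS1, 1.21-fold and BUB1B, which encodes BUBR1, 1.20-fold. BUB3 stood at 108 ± 8.64 CPM (SD, n = 3) in osmolyte-frozen, 115 ± 6.63 CPM (SD, n = 2) in DMSO-frozen and 119 ± 0.876 CPM (SD, n = 3) in fresh libraries and passed neither test.

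Of the 3 genes tied to the APC/C, CDC20 was lower in both comparisons, PTTG1 against fresh cells and UBE2C in neither. CDC20 had 56.0, 50.3 and 54.5 CPM in SMC, SGC and SGI, 66.4 and 66.9 CPM in DMSO-frozen libraries at 1 h and 0 h, and 78.2, 86.7 and 71.3 CPM in fresh cells after 1 h with DMSO, after 1 h in medium and at 0 h. The 3 groups did not overlap. CDC20 was 1.24-fold lower in osmolyte-frozen than in DMSO-frozen cells (edgeR adjusted p = 0.0120) and 1.47-fold lower than in fresh cells (log2 change -0.55, SE 0.08, edgeR adjusted p = 2.54e-05). UBE2C, the enzyme that hands ubiquitin to APC/C substrates, had 21.2, 22.2 and 24.4 CPM in SMC, SGC and SGI, against 19.0 and 19.7 CPM in DMSO-frozen libraries. It was the only gene of the 37 whose osmolyte-frozen libraries all lay above both DMSO-frozen ones, with a log2 change of 0.22 that did not pass (SE 0.10, edgeR adjusted p = 0.0943). In fresh cells it had 22.0, 21.0 and 19.5 CPM after 1 h with DMSO, after 1 h in medium and at 0 h, which overlapped the osmolyte-frozen values. PTTG1 was 1.22-fold lower than in fresh cells (edgeR adjusted p = 0.0328), at 22.6 ± 1.49 CPM (SD, n = 3) in osmolyte-frozen and 27.7 ± 4.44 CPM (SD, n = 3) in fresh libraries, which overlapped.

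At the kinetochore and centromere, 2 of 6 genes were lower against DMSO-frozen cells (CENPF and CENPE) and 1 of 6 against fresh cells (CENPF). CENPF, a large protein of the outer kinetochore, had 99.6, 87.8 and 103 CPM in SMC, SGC and SGI, 122 and 143 CPM in DMSO-frozen libraries at 1 h and 0 h, and 142, 125 and 116 CPM in fresh cells after 1 h with DMSO, after 1 h in medium and at 0 h. All osmolyte-frozen libraries lay below the others. CENPF was 1.37-fold lower than in DMSO-frozen cells (log2 change -0.45, SE 0.10, edgeR adjusted p = 0.00229) and 1.32-fold lower than in fresh cells (edgeR adjusted p = 0.00160). CENPE was 1.20-fold lower than in DMSO-frozen cells (edgeR adjusted p = 0.0496), with a log2 change of -0.16 against fresh cells that did not pass (SE 0.09, edgeR adjusted p = 0.169). Its call against DMSO-frozen cells was lost with the trend on gene length, described further on, removed. It was also lost without SGC and without SGI.

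CENPA, NDC80, NUF2 and SPC25 passed neither test. CENPA, the centromeric form of histone H3, stood at 8.52 ± 0.862 CPM (SD, n = 3) in osmolyte-frozen, 8.52 ± 1.11 CPM (SD, n = 2) in DMSO-frozen and 8.68 ± 1.51 CPM (SD, n = 3) in fresh libraries. Its log2 change was -0.02 against fresh cells (SE 0.14, edgeR adjusted p = 0.905). NDC80, NUF2 and SPC25 encode subunits of the complex that holds microtubules. Their log2 changes against DMSO-frozen cells were -0.22, -0.00 and 0.18, with SE of 0.11, 0.12 and 0.12.

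Of the 2 chromosomal passenger genes, BIRC5 was lower in both comparisons and AURKB in neither. BIRC5, which encodes survivin, had 36.3, 30.9 and 32.5 CPM in SMC, SGC and SGI, 41.4 and 44.4 CPM in DMSO-frozen libraries at 1 h and 0 h, and 55.8, 62.4 and 46.5 CPM in fresh cells after 1 h with DMSO, after 1 h in medium and at 0 h. The groups did not overlap and stood in that order. BIRC5 had the largest fall of the 37 genes against fresh cells, 1.65-fold (log2 change -0.72, SE 0.10, edgeR adjusted p = 1.80e-05), and was 1.29-fold lower than in DMSO-frozen cells (edgeR adjusted p = 0.0159). It lies on chromosome 17 from 76210277 to 76221716 in hg19. AURKB, the kinase of the same complex, had 11.9, 11.3 and 13.5 CPM in SMC, SGC and SGI, 11.5 and 11.3 CPM in DMSO-frozen libraries at 1 h and 0 h, and 14.6, 13.9 and 13.2 CPM in fresh cells after 1 h with DMSO, after 1 h in medium and at 0 h. SGI overlapped the fresh libraries. The log2 change was 0.10 against DMSO-frozen cells (SE 0.11, edgeR adjusted p = 0.532) and -0.18 against fresh cells (SE 0.10, edgeR adjusted p = 0.155).

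Among spindle motors and microtubule-binding proteins, KIF11, KIF4A and HMMR were lower in both comparisons and KIF2C against fresh cells. KIF11, the motor that pushes spindle poles apart, stood at 34.3 ± 3.11 CPM (SD, n = 3) in osmolyte-frozen, 45.4 ± 4.12 CPM (SD, n = 2) in DMSO-frozen and 46.7 ± 3.79 CPM (SD, n = 3) in fresh libraries. It was 1.33-fold lower than in DMSO-frozen cells (edgeR adjusted p = 0.00385) and 1.36-fold lower than in fresh cells (edgeR adjusted p = 0.000479). KIF4A was 1.29-fold and 1.32-fold lower in these 2 comparisons, and HMMR, a spindle protein also known as a hyaluronan receptor, 1.26-fold and 1.32-fold. KIF2C, a kinesin that takes microtubules apart at centromeres, was 1.255-fold lower than in fresh cells. NUSAP1, which bundles microtubules, had log2 changes of -0.14 and -0.21 that did not pass. ASPM, a protein of spindle poles, had 60.3, 45.3 and 57.5 CPM in SMC, SGC and SGI, 62.5 and 72.5 CPM in DMSO-frozen libraries, and 79.4 CPM after 1 h with DMSO against 51.6 CPM after 1 h in medium in fresh cells, with 67.1 CPM at 0 h. The fresh libraries overlapped both frozen groups, and the log2 change of -0.31 against DMSO-frozen cells did not pass (SE 0.19, edgeR adjusted p = 0.240).

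In cytokinesis, RACGAP1, ECT2 and ANLN were lower in both comparisons and PRC1 against fresh cells, while KIF20A and KIF23 passed neither. RACGAP1 and KIF23 encode the partners that form centralspindlin, which gathers at the middle of the spindle and recruits ECT2, an exchange factor that acts at the division furrow. RACGAP1 had 32.4, 31.2 and 34.5 CPM in SMC, SGC and SGI, 43.0 and 48.9 CPM in DMSO-frozen libraries at 1 h and 0 h, and 55.4, 47.8 and 42.7 CPM in fresh cells after 1 h with DMSO, after 1 h in medium and at 0 h. The osmolyte-frozen libraries lay below the rest. RACGAP1 was 1.40-fold lower than in DMSO-frozen cells (log2 change -0.49, SE 0.10, edgeR adjusted p = 0.00147) and 1.49-fold lower than in fresh cells (log2 change -0.57, SE 0.09, edgeR adjusted p = 8.20e-05).

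ECT2 had 40.7, 36.8 and 40.1 CPM in SMC, SGC and SGI, 50.6 and 56.6 CPM in DMSO-frozen libraries at 1 h and 0 h, and 59.6, 49.5 and 52.4 CPM in fresh cells after 1 h with DMSO, after 1 h in medium and at 0 h. No osmolyte-frozen library reached any other. ECT2 was 1.37-fold lower than in DMSO-frozen cells, with the lowest adjusted p of the 37 genes there (log2 change -0.45, SE 0.09, edgeR adjusted p = 0.00125), and 1.37-fold lower than in fresh cells (edgeR adjusted p = 0.000247). KIF23 stood at 46.6 ± 1.42 CPM (SD, n = 3) in osmolyte-frozen, 49.0 ± 2.15 CPM (SD, n = 2) in DMSO-frozen and 50.2 ± 3.85 CPM (SD, n = 3) in fresh libraries. Its log2 change was -0.07 against DMSO-frozen cells (SE 0.08, edgeR adjusted p = 0.536). ANLN, the scaffold anillin of the contractile ring, was 1.34-fold lower than in DMSO-frozen and 1.26-fold lower than in fresh cells. PRC1, which bundles antiparallel microtubules at the midzone, was 1.255-fold lower than in fresh cells. KIF20A, a kinesin of the midzone, had log2 changes of -0.13 and -0.23 that did not pass, and it overlaps CDC23, at 1484 to 2222 counts, with reads that may be split between them.

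The 2 genes of chromosome structure were lower in both comparisons. TOP2A, the topoisomerase that untangles sister chromatids, had 133, 128 and 150.3 CPM in SMC, SGC and SGI, 180.5 and 214 CPM in DMSO-frozen libraries at 1 h and 0 h, and 216, 171 and 182 CPM in fresh cells after 1 h with DMSO, after 1 h in medium and at 0 h. All osmolyte-frozen libraries lay below the others. TOP2A had the largest fall of the 37 genes against DMSO-frozen cells, 1.44-fold (log2 change -0.52, SE 0.11, edgeR adjusted p = 0.00144), and was 1.38-fold lower than in fresh cells (edgeR adjusted p = 0.000900). It lies on chromosome 17 from 38544773 to 38574202 in hg19. Without the DMSO-frozen 0 h library its adjusted p was 0.0522, that of CENPF 0.0758 and that of MKI67 0.0976 by edgeR.

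MKI67 encodes Ki-67, the coat protein of mitotic chromosomes used in pathology to count cycling cells. It had 132, 110.3 and 141 CPM in SMC, SGC and SGI, 165 and 180.1 CPM in DMSO-frozen libraries at 1 h and 0 h, and 200.3, 164 and 166 CPM in fresh cells after 1 h with DMSO, after 1 h in medium and at 0 h. SGC was the lowest library and fresh 1 h DMSO the highest, and the osmolyte-frozen libraries overlapped no other. MKI67 was 1.35-fold lower than in DMSO-frozen cells (log2 change -0.43, SE 0.11, edgeR adjusted p = 0.00622) and 1.38-fold lower than in fresh cells (log2 change -0.47, SE 0.10, edgeR adjusted p = 0.00104). In DMSO-frozen against fresh cells its log2 change was -0.04 (SE 0.11, edgeR adjusted p = 0.918).

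**Figure D4:**
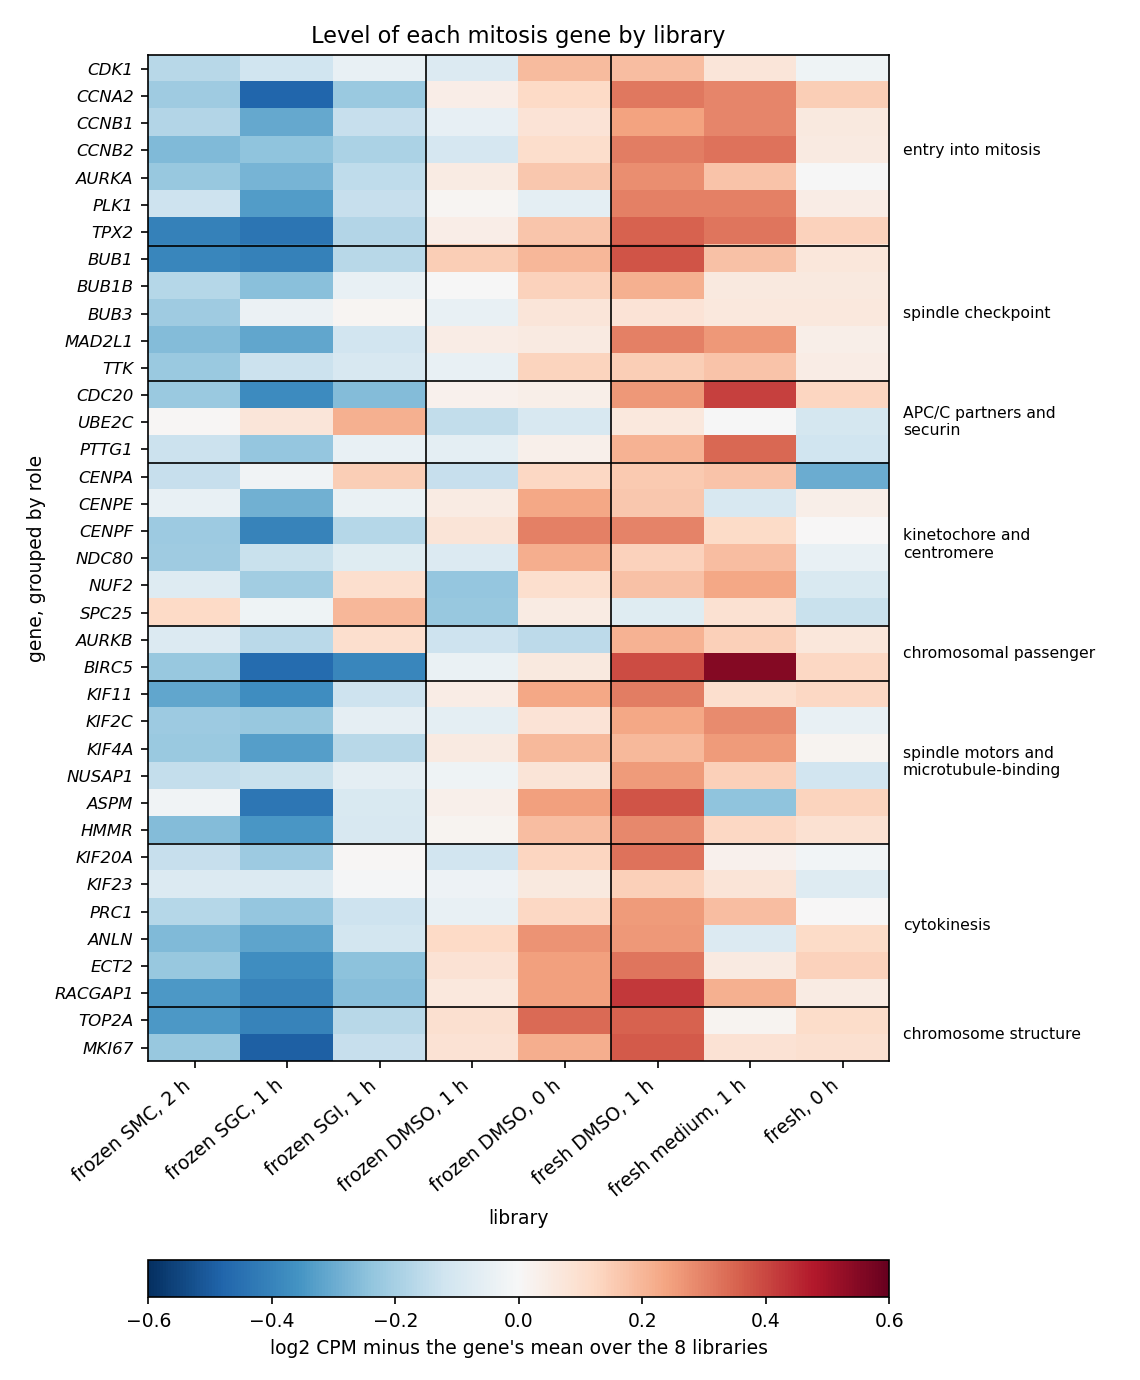
Each cell is the log2 CPM of 1 gene in 1 library minus that gene's mean over the 8 libraries, with genes in rows by role and libraries in columns, osmolyte-frozen on the left and fresh on the right. Blue (below the mean) fills most of the 3 osmolyte-frozen columns, and SGC held the lowest level of 26 of the 37 genes.

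The 3 osmolyte-frozen libraries, 1 per solution, kept an order in most of these genes. SGC had the lowest level of the 3 for 28 of 37 genes, against 33.9% of all genes tested, and SGI the highest for 31, against 28.1%. SGC was set against the library frozen for the same 1 h in DMSO, with 1 library each and no test. It had 32 of 37 genes below that library, where 51.7% of all genes were above it. The median log2 ratio was -0.33, against 0.019 over all genes. At 1.5-fold 0 of the 37 were lower or higher, against 5.65% and 7.78% of all genes. Past a smaller log2 ratio of 0.32, 19 were lower and 0 higher, against 16.6% and 16.7% of all genes. MKI67 had the lowest log2 ratio, -0.58. SGI against the same library had 25 of the 37 below it, where 50.4% of all genes were above it. The median log2 ratio was -0.09, against 0.0046 over all genes. At 1.5-fold 0 of the 37 were lower or higher (4.54% of all genes were lower and 8.90% higher). Past 0.32, 2 genes, ECT2 and BIRC5, were lower (15.4% of all genes) and 3, UBE2C, NUF2 and SPC25, were higher (17.1%). BIRC5 had a log2 ratio of -0.35 and SPC25 of 0.43 in SGI.

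In the 3 fresh libraries, 1 h with DMSO gave the highest level for 25 of 37 genes, against 31.2% of all genes, and 0 h gave the lowest for 29, against 29.7%. After 1 h in medium the median log2 ratio to 0 h was 0.15 (0.00097 over all genes), with 29 of 37 above 0 (50.3% of all genes). At 1.5-fold 0 of the 37 were higher or lower, against 1.21% and 2.27% of all genes. Past 0.32, CENPA, KIF2C, BIRC5, NUF2 and PTTG1 were higher (4.79% of all genes) and ASPM was lower (8.74%). After 1 h with DMSO against 1 h in medium the median log2 ratio was 0.07 (-0.015 over all genes). It was above 0 for 25 of the 37 (47.5% of all genes). Only ASPM was at least 1.5-fold higher, at a log2 ratio of 0.62, against 1.94% of all genes, and none was as much lower (1.88%). TOP2A and ANLN joined it past 0.32, where 8.13% of all genes were higher and 5.98% lower.

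In the cells frozen in DMSO 35 of 37 genes were lower at 1 h than at 0 h, against 51.1% of all genes, with a median log2 ratio of -0.14. At 1.5-fold 0 were lower (0.983% of all genes) and 0 higher (1.23%), and past 0.32 NUF2 was lower (3.87%) and 0 higher (5.63%). Frozen against fresh cells, both with DMSO for 1 h, gave all 37 genes lower, where 49.6% of all genes were higher. The log2 ratios were -0.44 for KIF20A to -0.11 for CENPE, with a median of -0.27, against -0.0025 over all genes. At 1.5-fold 0 were lower or higher, against 1.35% and 2.26% of all genes. Past 0.32, 7 were lower and 0 higher (CCNB2, AURKB, KIF20A, RACGAP1, BIRC5, NUF2 and ASPM), against 4.63% and 7.58% of all genes. Each of these pairs rests on 1 library per condition and has no replicate check, and the fresh 1 h DMSO library had the highest level of all 8 for 20 of the 37 genes.

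The change of a gene went with the length of its transcript. Across the 37 genes, the Spearman correlation between gene length in the table and log2 change was -0.64 for osmolyte-frozen against DMSO-frozen cells, where it was -0.27 over all 15564 genes. The points share libraries and counting depth, and genes are not independent replicates. The 6 longest genes (MKI67, ASPM, CENPF, CENPE, TOP2A and KIF11, at 5078 to 12495 bases) had a median log2 change of -0.42, and the 6 shortest (CCNB2, MAD2L1, CENPA, SPC25, AURKB and PTTG1, at 712 to 1549 bases) one of -0.06. Against fresh cells the correlation was -0.25, and -0.12 over all genes, with medians of -0.42 for the long and -0.24 for the short genes. For DMSO-frozen against fresh cells it was 0.67, and 0.26 over all genes, with medians of 0.04 and -0.16.

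The same relation stood within fresh cells. The Spearman correlation with length was 0.70 for 1 h with DMSO against 1 h in medium, and 0.32 over all genes. For 1 h in medium against 0 h it was -0.69, and -0.27 over all genes, so in each of these comparisons the trend had the same sign over all genes as among the 37. ASPM, the longest but 1 of the 37, had the largest log2 ratio of the 37 between 1 h with DMSO and 1 h in medium, 0.62, and CENPA, at 1429 bases, that between 1 h in medium and 0 h, 0.47. With the trend on length taken out of each library, an alternative chosen after seeing the data, 22 of the 37 genes were lower against DMSO-frozen cells (17.3% of all genes), 27 against fresh cells (23.5%) and 0 in DMSO-frozen against fresh cells by edgeR. The median log2 changes were then -0.29, -0.36 and -0.07, and the Spearman correlation across the 37 genes was -0.11, -0.00 and 0.18.

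**Figure D5:**
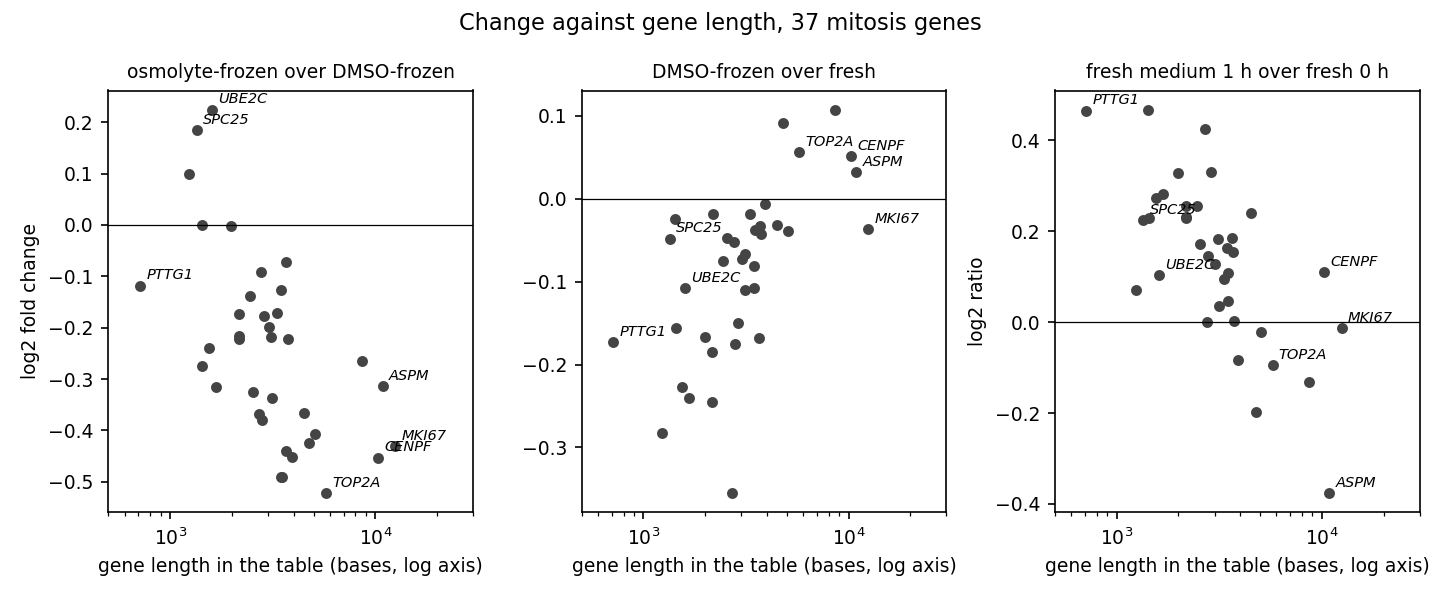
Each point is 1 of the 37 genes, with its length in the table in bases on a log axis and its log2 change for osmolyte-frozen over DMSO-frozen and DMSO-frozen over fresh cells, or its log2 ratio for fresh 1 h medium over fresh 0 h. The change falls with length for osmolyte-frozen over DMSO-frozen (correlation -0.64) and medium over 0 h (correlation -0.69) and rises with it for DMSO-frozen over fresh (correlation 0.67).

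Promoters with and without TTTGAA or TTCGAA were set against the changes as a description. Against fresh cells 15 of the 23 genes with these letters were lower in osmolyte-frozen cells and 4 of the 7 without them, with median log2 changes of -0.40 and -0.29. Against DMSO-frozen cells 10 of 23 and 2 of 7 were lower, with medians of -0.28 and -0.18. Of the promoters printed above, CENPA and KIF23 hold the letters and passed neither test, while PLK1 and CCNB2 were lower against fresh cells and HMMR, KIF11 and MKI67 in both comparisons.

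Other lists of the same processes were counted in osmolyte-frozen cells by the same edgeR test, which called 16.5% of all genes lower and 13.6% higher against DMSO-frozen cells, and 21.0% lower and 19.1% higher against fresh cells. Of 19 genes of condensin, cohesin release and the passenger complex, 11 were lower and 1 higher against DMSO-frozen cells, and 13 lower and 0 higher against fresh cells, with median log2 changes of -0.32 and -0.35. CDCA2, a chromatin-bound phosphatase regulator, was 1.52-fold and 1.72-fold lower, NCAPG2, a condensin II subunit, 1.48-fold and 1.54-fold, and SMC2, the condensin ATPase, 1.48-fold in both. The gene that was higher was NCAPH2, another condensin II subunit, at 1.251-fold. Of 28 genes of S phase, 13 and 17 were lower, with 0 higher. RRM1, a subunit of ribonucleotide reductase, was 1.58-fold and 1.64-fold lower, and GINS1, part of the replicative helicase, 1.49-fold and 1.55-fold. TK1, thymidine kinase, was 1.70-fold lower than in fresh cells and was the 1 gene of that list that was also lower in DMSO-frozen than in fresh cells, by 1.33-fold.

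Of 34 genes listed as other kinetochore and checkpoint genes, 5 were lower and 4 higher against DMSO-frozen cells, and 11 lower and 3 higher against fresh cells. The 34 include MXD3, which encodes a transcription factor and is not a kinetochore or checkpoint gene. Against DMSO-frozen cells both shares were below those of all genes. CASC5, the kinetochore scaffold also called KNL1, was 1.55-fold and CENPI 1.45-fold lower than in DMSO-frozen cells. CENPT, which links the centromere to the NDC80 complex, was 1.51-fold higher than in DMSO-frozen and 1.55-fold higher than in fresh cells, while CENPH was 1.57-fold and SPC24 1.502-fold lower than in fresh cells. Of 26 other spindle, motor and centrosome genes 6 and 11 were lower and 0 higher. DLGAP5, a spindle protein, was 1.38-fold lower than in DMSO-frozen cells and 1.49-fold lower than in fresh cells, CKAP2 1.36-fold and 1.42-fold. CKAP2L was 1.42-fold lower than in DMSO-frozen cells and STIL, a centriole protein, 1.39-fold lower than in fresh cells.

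Of 17 genes listed as other cytokinesis genes 7 were lower and 0 higher against DMSO-frozen cells, and 9 lower and 1 higher against fresh cells. The 17 include KIF13B, a kinesin that carries cargo, and PLK2, a kinase of centriole duplication, whose place in cytokinesis is less established. SPAST, which severs microtubules, and DEPDC1 were 1.36-fold lower and KIF13B 1.29-fold lower than in DMSO-frozen cells, and SEPT9, a septin, 1.59-fold, CIT, citron kinase, 1.46-fold and ARHGAP11A 1.38-fold lower than in fresh cells. In DMSO-frozen cells SEPT11, another septin, was 1.33-fold higher than in fresh ones. Among 14 genes of mitotic entry control 5 and 9 were lower, with 0 higher. They included CDC25A, a phosphatase that activates cyclin-dependent kinases, 1.38-fold lower than in DMSO-frozen and 1.36-fold lower than in fresh cells, PBK, 1.35-fold and 1.60-fold, ARPP19, 1.31-fold lower than in DMSO-frozen cells, and CDKN3, 1.36-fold lower than in fresh cells. Of the subunits and coactivators of the APC/C, 2 of 16 were lower (CDC27, 1.35-fold, and ANAPC1, 1.27-fold) against DMSO-frozen cells, and 3 lower and 1 higher against fresh cells, where CDC27 was 1.30-fold lower. The shares of this list called lower were below those of all genes in both comparisons.

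Among 21 genes that control transcription of this programme, 4 were lower and 2 higher against DMSO-frozen cells, and 4 lower and 1 higher against fresh cells, with median log2 changes of -0.04 and -0.07, and the shares called lower were close to those of all genes. FOXM1, an activator of late cell cycle genes, stood at 32.5 ± 3.36 CPM (SD, n = 3) in osmolyte-frozen, 43.8 ± 0.544 CPM (SD, n = 2) in DMSO-frozen and 51.7 ± 6.89 CPM (SD, n = 3) in fresh libraries. It was 1.35-fold lower than in DMSO-frozen cells (edgeR adjusted p = 0.00595) and 1.59-fold lower than in fresh cells (edgeR adjusted p = 3.71e-05). RBL1, which encodes the pocket protein p107 of the DREAM family, was 1.40-fold and 1.43-fold lower. LIN37, a MuvB subunit, was 1.32-fold higher than in DMSO-frozen cells, and LIN54, the MuvB subunit that binds TTTGAA, 1.24-fold lower than in fresh cells. In DMSO-frozen against fresh cells 0 of these 21 genes passed in either direction by edgeR.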

How the data were processed

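The 37 genes and all gene lists were chosen with earlier results of these data known. The authors deposited whole-number counts per gene, with RPKM beside them, and the submitters' processing notes name CASAVA 1.9, TopHat 12.0.6, HTSeq and hg19, without their settings. Every deposited count was even (0 odd counts), so intervals take 2 per counted unit. The RPKM values deposited by the authors were used only to derive the library total they imply, which is set beside the counts in the results. Among 23398 entries 49 identifiers were repeated. For 41 of them the counts were identical and a single entry was kept, and for 8 they differed and each differing entry was kept. This left 23354 entries, called genes here, and 0 columns belonged to other samples.

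Counts were fitted with edgeR 4.0.16 in R 4.3.3: 3 groups, TMM scaling, filterByExpr over fresh and frozen libraries, robust quasi-likelihood fit with 5 residual degrees of freedom, BH adjustment at 0.05 over 15564 genes. CPM values are TMM-scaled. All libraries differed by more than sampling noise (chi-square per degree of freedom at least 6.475). Pairs of single libraries were set side by side as log2 ratios with a prior count of 2, counted at 1.5-fold where the higher library had 50 counts, and the pairs of SGC and SGI with frozen 1 h DMSO were added after seeing the data. The genes given in full were the 6 with the largest called rise and fall in each comparison and 7 lead genes of the roles, and of other lists the 3 with the largest called change. Others named, such as CENPA, BUB3, KIF23, UBE2C and ASPM, were picked after their values were seen. The alternatives were DESeq2 1.42.0, other scalings and filters, counts divided by 2, fewer groups and each library left out. The script was tested on simulated data.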

Additional observations from a re-analysis of the deposited data

Results flagged for a closer look

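The summed level of the 37 genes moved in opposite directions with holding time in fresh and in frozen cells. It was 2061 CPM after 1 h in medium, against 1943 CPM at 0 h, in fresh cells, a log2 ratio of 0.086. In cells frozen in DMSO it was 1891 CPM at 1 h, against 2104 CPM at 0 h, a log2 ratio of -0.15. The 2 settings also differ in the solution held for 1 h, each value rests on 1 library, and the difference was not tested.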

How the results depend on the processing

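No paired analysis was possible because the labels carry no replicate numbers. The number of the 37 genes lower in osmolyte-frozen than in DMSO-frozen cells was 16, and 4 to 20 with 1 library left out, with a median log2 change of -0.32 to -0.17; it was 10 without SGC and 4 without DMSO-frozen 0 h. It was 5 with the 1 h libraries alone (9.38% of all genes), a setting chosen after seeing the data, as was removal of the length trend. Against fresh cells it was 24, with 21 to 28 on leaving out 1 library and a median log2 change of -0.44 to -0.30. In DMSO-frozen against fresh cells 0 to 1 were lower on leaving out 1 library, with a median log2 change of -0.16 to 0.0066, and the median was -0.22 with the 1 h libraries alone. In that comparison, leaving out 1 library gave log2 changes of -0.071 to 0.17 for TOP2A, -0.10 to 0.062 for MKI67, -0.16 to 0.11 for CDK1 and -0.098 to 0.051 for BUB1, and TOP2A was at -0.092 with the 1 h libraries alone and -0.0050 with the length trend removed. With that trend removed AURKB was at -0.055 against DMSO-frozen cells. The cause of these shifts was not tested. Past a log2 ratio of 0.32 in place of 1.5-fold, 3 genes were higher for fresh 1 h DMSO over medium, 5 higher and 1 lower for medium over 0 h, 1 lower for frozen 1 h over 0 h DMSO, 7 lower for frozen over fresh 1 h DMSO, 19 lower for SGC, and 3 higher and 2 lower for SGI. Of the values checked, 456 for single genes and 170 for comparisons kept direction and side of the threshold or stayed within 1.5 times. Among those for single genes 10 reversed, 7 became stronger and 7 weaker, and 14 for comparisons moved. Leaving 1 library in a group takes it to vary as the others do.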
